A study of Mus musculus with 15 samples.

Results

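Coenzyme Q is the lipid that carries electrons inside the mitochondrial inner membrane, and the 10 genes described here, Coq2, Coq3, Coq4, Coq5, Coq6, Coq7, Coq8a, Coq9, Coq10a and Coq10b, make it, assemble its synthesis complex or bind it. They were found by symbol among the 22524 genes counted in each library, and all 10 had a row and passed the filter on low counts. The set was selected on the CPM differences between D95N and WT in these libraries, with earlier results known, so these differences are given as a description from the fit over all genes and support nothing further. The study asked how brain cortex of aged mice differs when 1 copy of Rps9, a protein of the small ribosomal subunit, carries the D95N substitution. The samples came from 7 female C57BL/6 mice heterozygous for D95N over wild-type Rps9 and from 8 female littermates with wild-type Rps9 on both copies (WT), all 18 months old. Each library is 1 animal by its label and is named by genotype and animal number. Heterozygous animals keep a wild-type copy of Rps9 in every cell, and gene counts cannot show the substitution. The mean of Rps9 itself in CPM, counts scaled to library size with TMM factors, was 63.1 ± 6.13 in D95N against 65.3 ± 3.02 in WT (SD, n = 7 and 8).

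The molecule is built from a ring made from tyrosine and an isoprenoid tail made by the mevalonate pathway, which also feeds cholesterol synthesis. Enzymes at the matrix face of the inner membrane join ring and tail and then modify the ring in steps. The finished quinone takes electrons from complexes I and II and from several other dehydrogenases and hands them to complex III, and its reduced form also protects membrane lipids from oxidation. Inherited defects of these genes in humans often affect the brain, and loss of COQ8A is a known cause of cerebellar ataxia.

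Total counts per library ran from 23349381 to 34587082. The tissue field of the labels reads skeletal muscle while the design names cortex, and the markers went with brain tissue. The summed level of 7 neuronal markers was 7723 to 8152 CPM in D95N and 7776 to 8315 CPM in WT, and that of 11 skeletal muscle markers was 10.7 to 21.3 CPM in D95N and 11.2 to 45.0 CPM in WT. On the first principal component of log2 CPM over all tested genes, which held 37.8% of the variance, 6 D95N libraries lay between -32.5 and -4.89, D95N 42 at 13.9, and the 8 WT libraries between 10.6 and 19.4. D95N 42 thus lay among the WT libraries there, and the main values are also given without it.

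Of the 10 genes, 4 were higher in D95N at an adjusted p under 0.05, namely Coq10b, Coq8a, Coq10a and Coq6, and none was lower (edgeR quasi-likelihood test, Benjamini-Hochberg adjustment over all genes tested). At an unadjusted p under 0.05 the counts were the same, 4 higher and 0 lower, and the share of all genes at that threshold is not given here. At the adjusted threshold 15.2% of all 14989 tested genes were called higher and 11.6% lower, 26.8% in all. Because the choice of genes used this comparison, nothing is read from the 2 shares. DESeq2 also gave 4 and 0, beside 15.1% and 11.6% of its tested genes, and limma-voom 4 and 0 beside 14.1% and 12.2%. Scaled by library totals, 3 genes were called higher, without Coq6, beside 12.1% higher and 16.9% lower of all genes, and with upper-quartile factors 4, beside 12.8% and 15.7%. The median log2 fold change, D95N over WT, was 0.084 over the 10 genes and -0.0078 over all tested genes. The 4 called genes comprise the paired quinone-binding proteins, the kinase-like ATPase and 1 of the ring hydroxylases. Coq2, Coq3, Coq4, Coq5, Coq7 and Coq9 had smaller differences that were not called. No split of the set by function is drawn from these calls. Without D95N 42 the counts were again 4 higher and 0 lower, beside 17.9% and 15.2% of all genes. In none of the 10 genes did all D95N libraries lie above all WT libraries, which was so for 1.81% of tested genes, and in none did all lie below, against 1.47%. In bulk tissue, a change in the share of cells that use a gene and a change in its RNA per cell cannot be told apart.

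Markers of several other cell types moved with genotype in these libraries. The summed level of 8 blood markers was 37.3 to 149 CPM (median 60.2) in D95N and 81.4 to 312 CPM (median 121) in WT. All 8 had the lower mean in D95N, and all D95N libraries but D95N 42, at 149 CPM, had a sum below every WT library. The summed level of 12 meningeal markers was 96.6 to 193 CPM (median 155) in D95N and 168 to 234 CPM (median 207) in WT, with 11 of 12 lower in D95N. The summed level of 7 astrocyte markers was 4058 to 4934 CPM (median 4539) in D95N and 4678 to 4932 CPM (median 4770) in WT, with 6 of 7 lower in D95N, and all D95N libraries but D95N 4 lay below every WT library. All 6 choroid plexus markers, 8 of 10 striatal and 5 of 6 microglial markers also had the lower mean in D95N, but their summed levels overlapped between genotypes. The choroid plexus medians were 378 CPM in D95N and 638 CPM in WT. The striatal medians were 1138 and 1124 CPM and the microglial medians 417 and 432 CPM, in that order. None of these markers was at 0 in every library, and the part of astrocyte and microglial transcripts in the results was not tested. With scores for the blood and meningeal lists as covariates, none of the 10 genes was called in either direction. Of all tested genes 0.127% were called with these scores, 0.0467% higher and 0.0801% lower. In that fit the log2 fold change was 0.43 ± 0.19 (SE) for Coq10b, against 0.41 ± 0.10 without the scores. It was 0.15 ± 0.081 for Coq10a, against 0.18 ± 0.050, and 0.18 ± 0.087 for Coq6, against 0.17 ± 0.051. For Coq8a it was 0.10 ± 0.091, against 0.25 ± 0.057. The standard error was larger with the scores for all 4 genes, and of the 4 fold changes that of Coq8a was lowered most.

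**Figure D1:**
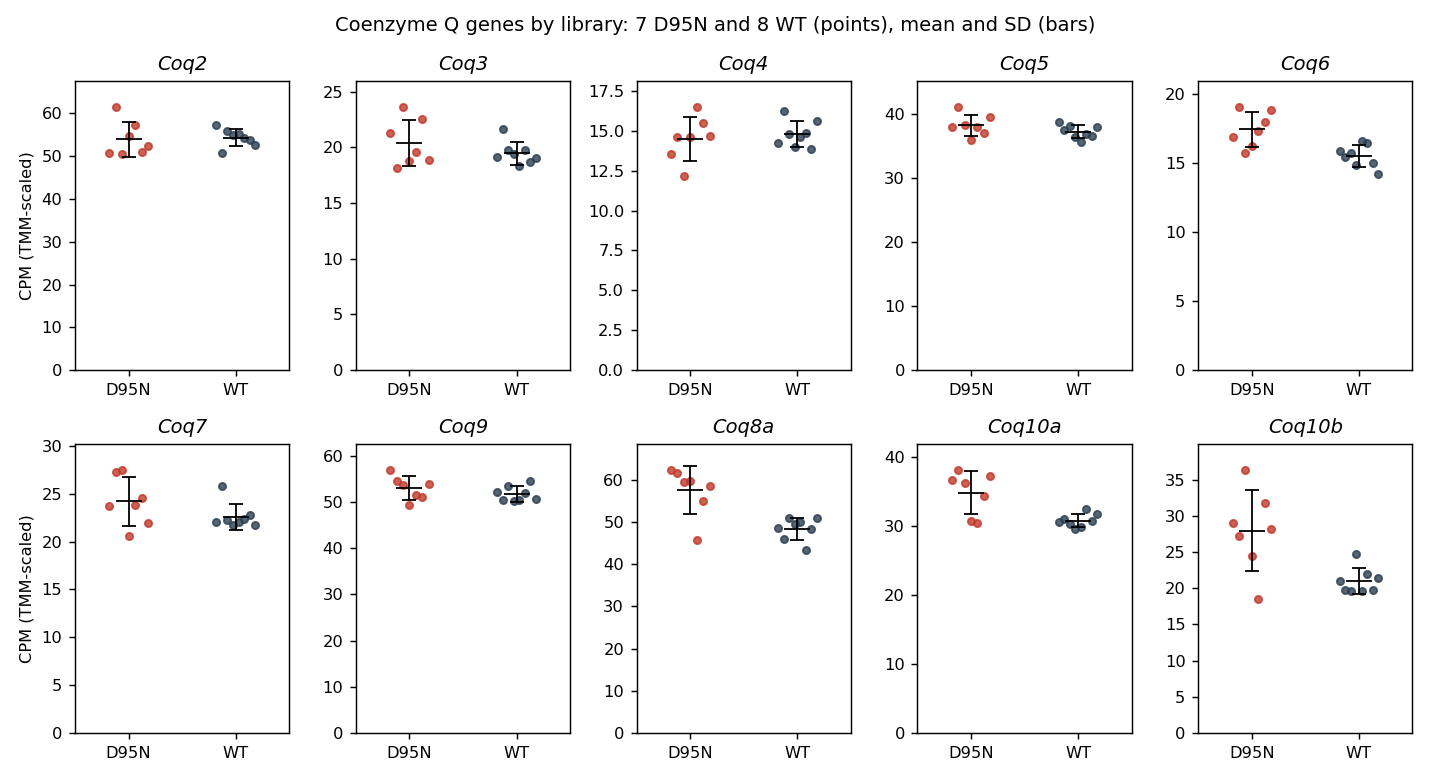
Normalised level (CPM scaled with TMM factors, linear axis from 0) of the 10 coenzyme Q genes in each library. Each point is 1 library, with D95N on the left (n = 7) and WT on the right (n = 8), and bars are the mean and SD; Coq10b is the gene in which the D95N libraries spread most relative to their mean, from 18.5 to 36.3 CPM.

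The promoters of the 4 called genes are shown because all 4 were called in the same direction. For 9 of the 10 genes, all but Coq5, RefSeq lists 12 transcription starts in build GRCm38.p6. The 250 bases before the start are printed 5′ to 3′ on the gene's strand, with 2 short motifs in capitals wherever they occur on either strand: TGACG, the half-site of the cAMP response element, and CCAAT, the CCAAT box. For Coq8a the upstream one of its RefSeq starts is shown, and for Coq10a the start that lies in the GENCODE gene.
Coq10b, chr1:55052520-55052769, plus strand: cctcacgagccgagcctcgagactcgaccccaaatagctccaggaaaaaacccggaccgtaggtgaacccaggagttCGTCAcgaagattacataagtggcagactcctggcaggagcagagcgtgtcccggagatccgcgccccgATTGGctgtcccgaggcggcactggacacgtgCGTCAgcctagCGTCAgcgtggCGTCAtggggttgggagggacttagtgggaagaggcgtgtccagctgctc
Coq10a, chr10:128368981-128369230, minus strand: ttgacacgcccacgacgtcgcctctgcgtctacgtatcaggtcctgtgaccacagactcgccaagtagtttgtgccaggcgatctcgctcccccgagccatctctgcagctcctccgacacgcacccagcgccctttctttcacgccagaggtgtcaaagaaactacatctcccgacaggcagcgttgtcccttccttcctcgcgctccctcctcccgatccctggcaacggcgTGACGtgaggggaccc
Coq8a, chr1:180196021-180196270, minus strand: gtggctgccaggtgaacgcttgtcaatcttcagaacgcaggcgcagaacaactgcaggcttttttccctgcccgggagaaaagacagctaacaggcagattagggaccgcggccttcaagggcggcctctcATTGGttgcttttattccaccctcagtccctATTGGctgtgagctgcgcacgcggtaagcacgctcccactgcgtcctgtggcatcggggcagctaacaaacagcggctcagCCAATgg
Coq6, chr12:84361718-84361967, plus strand: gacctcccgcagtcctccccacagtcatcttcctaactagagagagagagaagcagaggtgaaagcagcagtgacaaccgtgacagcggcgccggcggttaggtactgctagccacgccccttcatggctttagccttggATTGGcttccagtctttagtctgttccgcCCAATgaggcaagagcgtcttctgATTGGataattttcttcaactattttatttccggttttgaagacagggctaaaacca
The Coq10b window holds 4 matches to TGACG and 1 to CCAAT, the Coq10a window 1 match to TGACG and none to CCAAT. The Coq8a and Coq6 windows each hold 3 matches to CCAAT and none to TGACG. Of all 32851 RefSeq windows, 17.8% hold TGACG and 33.8% hold CCAAT, and among the 12 windows of the coenzyme Q genes 4 hold each. GC content was 62.0% for Coq10b, 62.0% for Coq10a, 58.0% for Coq8a and 50.8% for Coq6, where the median of all windows was 52.4%. Of the other motifs searched on both strands, GGGCGG (SP1) occurred in 4 of the 12 windows and in 32.7% of all windows, and CACGTG (E-box) in 2 of the 12, those of Coq10b and Coq4, and in 6.02% of all. Matches to the NRF-1 motif, CCGGAAGT (ETS), TGACGTCA (the full cAMP response element, which contains the half-site), TCAAGGTCA (ERR), and AAGATGGCG (YY1) were found in none of the 12 windows, and in 3.74%, 2.88%, 1.55%, 0.387% and 0.606% of all windows in that order. The letters TATAAA were likewise in none of the 12 and in 12.4% of all windows. A match is a string of letters and not a measured binding site.

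Coq10a and Coq10b encode START-domain proteins of mitochondria that bind coenzyme Q and are needed for its function in respiration rather than for its synthesis, as first shown in yeast. Coq10b (ENSMUSG00000025981, chromosome 1, 55052770 to 55072702) stood at 29.0, 27.2, 36.3, 24.4, 18.5, 31.8 and 28.2 CPM in D95N 21, 28, 4, 41, 42, 44 and 50. In WT its lowest, median and highest values were 19.6, 20.4 and 24.7 CPM, the highest in WT 24. It was above every WT library in 5 D95N libraries, D95N 41 lay just under WT 24, and D95N 42 was below all 8 WT libraries. The means were 27.9 ± 5.61 CPM in D95N and 20.99 ± 1.77 CPM in WT (SD, n = 7 and 8), a fold of 1.33, the largest among the 10 genes. Leaving out 1 library at a time gave log2 fold changes from 0.34, without D95N 4, to 0.49, without D95N 42.

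Coq10a (ENSMUSG00000039914, chromosome 10, 128363100 to 128368997) stood at 36.7, 38.1, 36.2, 30.7, 30.5, 34.3 and 37.3 CPM in D95N 21, 28, 4, 41, 42, 44 and 50, and at 29.6 to 32.5 CPM (median 30.6) in WT. The same 5 D95N libraries that were above every WT library for Coq10b were so for Coq10a, while D95N 41 and 42 lay within the WT range. The means were 34.8 ± 3.12 CPM in D95N and 30.8 ± 0.981 CPM in WT (SD, n = 7 and 8), a fold of 1.13, and the log2 fold change was 0.21 without D95N 42, against 0.18 with all libraries. Per kilobase of exon, Coq10b made up 29.8% ± 3.44 of the sum of both paralogs in D95N and 26.7% ± 1.76 in WT (SD, n = 7 and 8). That share ran from 24.5% in D95N 42 to 34.9% in D95N 4, and from 25.5% to 30.9% in WT, so the groups overlapped, as they did without D95N 42, where the lowest D95N share was 27.7%. Coq10a was therefore the more abundant paralog per length in every library of either genotype.

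Coq8a encodes an atypical kinase-like ATPase of the inner membrane that is required for stable assembly of the synthesis complex. Coq8a (ENSMUSG00000026489, chromosome 1, 180165238 to 180199602) stood at 62.3, 61.7, 59.6, 59.8, 45.8, 55.0 and 58.6 CPM in D95N 21, 28, 4, 41, 42, 44 and 50, and at 43.4 to 50.9 CPM (median 49.0) in WT. It was above every WT library in 6 of 7 D95N libraries, and D95N 42 lay in the lower part of the WT range. The means were 57.5 ± 5.70 CPM in D95N and 48.4 ± 2.61 CPM in WT (SD, n = 7 and 8), a fold of 1.19. Leaving out D95N 42 gave a log2 fold change of 0.30 ± 0.042 (SE), against 0.25 ± 0.057 with all libraries. Coq8a shares 6.92% of its exonic bases with Cdc42bpa on the opposite strand.

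Coq6 is a flavin-dependent monooxygenase that hydroxylates the ring early in its modification, with electrons from ferredoxin and ferredoxin reductase. Coq6 (ENSMUSG00000021235, chromosome 12, 84361657 to 84373796) stood at 16.9, 19.1, 15.8, 16.2, 17.3, 18.0 and 18.9 CPM in D95N 21, 28, 4, 41, 42, 44 and 50, and at 14.2 to 16.6 CPM (median 15.6) in WT. It was above every WT library in 5 D95N libraries and within the WT range in D95N 4 and 41, so here D95N 42 was among the high libraries. The means were 17.5 ± 1.26 CPM in D95N and 15.5 ± 0.799 CPM in WT (SD, n = 7 and 8), a fold of 1.12. It was also not called when scores for oligodendrocytes, choroid plexus and striatum entered the fit, where its log2 fold change was 0.14 and 3 of the 10 genes were called, beside 13.1% of all genes higher and 10.1% lower. The summed level of 7 oligodendrocyte markers was 5682 to 7356 CPM in D95N and 6182 to 7569 CPM in WT, that of 6 choroid plexus markers 201 to 1148 CPM in D95N and 280.0 to 1071 CPM in WT, and that of 10 striatal markers 902 to 1760 CPM in D95N and 1045 to 1607 CPM in WT. Fam161b, on the opposite strand, covers 4.07% of the exonic bases of Coq6.

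**Figure D2:**
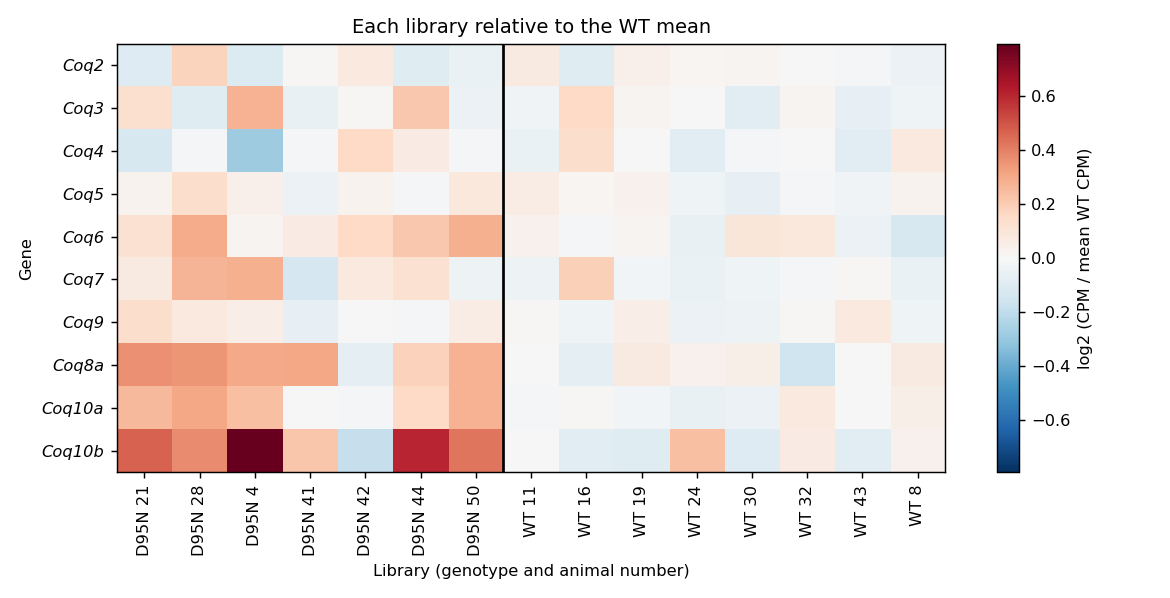
Level of each coenzyme Q gene in each library as log2 of its CPM over the mean CPM of the 8 WT libraries (colour), with D95N libraries to the left of the line and WT libraries to the right. Red is above the WT mean and blue below. Coq8a, Coq10a and Coq10b are red together in D95N 21, 28, 4, 44 and 50. D95N 42 is blue for Coq8a and Coq10b and, like D95N 41, just below the WT mean for Coq10a.

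The 6 other genes had log2 fold changes between -0.028 and 0.099 and were not called. Coq2 is the prenyltransferase that joins the tail to the ring. Its lowest, median and highest values were 50.5, 52.3 and 61.4 CPM in D95N and 50.8, 54.6 and 57.2 CPM in WT, a log2 fold change of -0.011 ± 0.044 (SE). The groups overlapped, with 2 D95N libraries above every WT library, D95N 28 the highest, and 2 below every WT library.

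Coq3 and Coq5 are the O-methyltransferase and the C-methyltransferase of the ring. Coq3 ran from 18.2 to 23.6 CPM (median 19.6) in D95N and from 18.3 to 21.7 CPM (median 19.3) in WT, and Coq5 from 36.0 to 41.1 CPM (median 37.9) in D95N and from 35.6 to 38.8 CPM (median 37.3) in WT. Their log2 fold changes were 0.069 ± 0.059 and 0.039 ± 0.034 (SE). Coq3 was called higher, at 0.16, in the fit with a correction for GC content and length, in which 20.8% of tested genes were called higher and 8.76% lower. In that fit 5 of the 10 genes were called.

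Coq7 is the di-iron hydroxylase of a late ring step, and Coq9 is the lipid-binding partner that presents the substrate to it. Coq7 ran from 20.6 to 27.5 CPM (median 23.8) in D95N and from 21.8 to 25.8 CPM (median 22.2) in WT, with a log2 fold change of 0.099 ± 0.060 (SE). Coq9 ran from 49.4 to 57.0 CPM (median 53.7) in D95N and from 50.1 to 54.6 CPM (median 51.3) in WT, with a log2 fold change of 0.035 ± 0.035 (SE). The D95N range of both partners enclosed the WT range.

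Coq4 acts in the synthesis complex, where it is needed for its stability. Its values were 12.2 to 16.5 CPM (median 14.6) in D95N and 13.9 to 16.2 CPM (median 14.7) in WT, with a log2 fold change of -0.028 ± 0.059 (SE). Within the D95N group, D95N 4 was the highest library for Coq10b, Coq3 and Coq7 and the lowest for Coq4, Coq2 and Coq6. Trub2 on the opposite strand covers 27.1% of the exonic bases of Coq4, and with the strand setting of the counting unknown, reads of the pair may not be separable. Opposite-strand exons of Ciapin1 cover 1.24% of Coq9, and those of E330011M16Rik, which has no row of its own, 7.14% of Coq10b.

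The genes differed among themselves more than between genotypes. Per kilobase of exon, Coq2 was the most abundant, at 20.6 ± 1.57 CPM per kilobase in D95N and 20.7 ± 0.754 in WT, followed by Coq9 at 17.4 ± 0.818 in D95N and 16.9 ± 0.538 in WT (SD, n = 7 and 8). The lowest was Coq7, at 3.76 ± 0.393 CPM per kilobase in D95N and 3.51 ± 0.208 in WT. In D95N the order was Coq2, Coq9, Coq10a, Coq5, Coq8a, Coq3, Coq10b, Coq6, Coq4 and Coq7, and in WT it was Coq2, Coq9, Coq5, Coq10a, Coq8a, Coq3, Coq6, Coq10b, Coq4 and Coq7. Neighbours whose library ranges overlapped were Coq10a with Coq5, Coq3 with Coq10b, Coq10b with Coq6 and Coq4 with Coq7 in D95N, and Coq5 with Coq10a, Coq6 with Coq10b and Coq10b with Coq4 in WT. Reads per gene ran from 340 for Coq4 to 1915 for Coq2 in single libraries. Exon lengths are unions over annotated transcripts, so a gene with long, rarely used exons is placed too low.

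Every one of the 10 genes had the larger SD of CPM in D95N, as did 81.3% of all tested genes. The coefficient of variation in D95N was 20.1% for Coq10b and 4.30% for Coq5, against 8.42% and 2.83% in WT. Summed over the 10 genes, the level was 319 to 363 CPM in D95N (mean 342 ± 15.6, SD, n = 7) and 312 to 321 CPM in WT (mean 316 ± 2.92, SD, n = 8). All D95N libraries but D95N 42 had a sum above every WT library, the lowest of them at 325 CPM. The sum includes the called genes, and the set was selected on these differences, so nothing is read from this separation. How often sums over other genes separate the libraries was not tested. D95N 28 was the highest D95N library in 4 of the 10 genes and lay above every WT library in 8, while D95N 41 did so in 1.

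For 8 of the 10 genes the nearest gene is given. The nearest gene over the 15 libraries was sought among the 11640 genes whose mean was 5 CPM or more, by the mean absolute difference of log2 CPM after each gene's own mean was subtracted. All 15 libraries share the genotype difference and the scaling, so this distance is a description of pattern alone. For Coq10a it was Lrrc41 at 0.021 (median over all genes compared 0.14), and for Coq9 it was Ctbp1 at 0.028 (median 0.11). Coq8a was nearest to Sh3bp5 at 0.040 (median 0.17), and Coq3 to Atpaf1, an assembly factor of the ATP synthase, at 0.043 (median 0.13). Coq10b was nearest to Amph, the endocytic protein amphiphysin, at 0.073 (median 0.26), the widest nearest distance of these 8. Amph averaged 322 CPM in D95N and 241 CPM in WT. Other nearest genes were Dtymk for Coq2, Ublcp1 for Coq4 and Alyref for Coq6, at 0.039 to 0.045.

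Among the other genes of the pathway, in 7 lists, 45 of 47 were tested, and 10 were called higher and 1 lower, beside 15.2% and 11.6% of all tested genes. The counts of the single lists are to be read beside the same shares, and nothing particular to a list is drawn from them. Scaling by library totals gave 7 and 5, and upper-quartile scaling 7 and 4. The GC and length correction gave 16 and 1, the oligodendrocyte, choroid plexus and striatum scores 5 and 1, and the blood and meningeal scores 0 and 0. Their median log2 fold change was 0.0024. The lower count was 0 without WT 19, 2 without D95N 4, WT 30 or WT 8, and 4 without D95N 28 or D95N 42. Tat and Hpd, enzymes of tyrosine breakdown, did not pass the filter on low counts. Hpdl, which takes part in making the ring, averaged 1.98 CPM in D95N and 1.26 CPM in WT, a log2 fold change of 0.64 (edgeR, adjusted p = 0.0788) that was not called. D95N 21 had 4.12 CPM, while the rest of the D95N group had 0.662 to 2.16 CPM. Without D95N 21 the log2 fold change was 0.36 (edgeR, adjusted p = 0.235), and it was called without D95N 42, at 0.80, and with the oligodendrocyte, choroid plexus and striatum scores, at 0.98.

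Of the 3 other synthesis genes, Coq8b rose and the side chain synthase subunits Pdss1 and Pdss2 were not called. Coq8b, the paralog of Coq8a, stood at 24.4, 25.4, 21, 22.9, 22.6, 22.1 and 27.1 CPM in D95N 21, 28, 4, 41, 42, 44 and 50, and at 18.1 to 21.9 CPM (median 20.1) in WT. All D95N libraries but D95N 4 were above every WT library, a difference of 0.25 ± 0.059 (SE) on the log2 scale (edgeR, adjusted p = 0.00581). Its call held in every alternative run other than the blood and meningeal scores, with which it stood at 0.30 on the log2 scale (edgeR, adjusted p = 0.132). Per kilobase of exon Coq8b made up 28.1% ± 2.35 of the sum of both paralogs in D95N and 28.1% ± 1.96 in WT (SD, n = 7 and 8), and the library ranges of this share overlapped. Pdss1, which with Pdss2 builds the tail, averaged 6.69 ± 0.900 CPM in D95N and 7.40 ± 0.377 CPM in WT (SD, n = 7 and 8), a log2 fold change of -0.15 (edgeR, adjusted p = 0.168) that was -0.19 and called without D95N 42 (adjusted p = 0.049). Pdss2 averaged 12.4 ± 0.964 CPM in D95N and 12.8 ± 0.735 CPM in WT, a log2 fold change of -0.049.

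**Figure D3:**
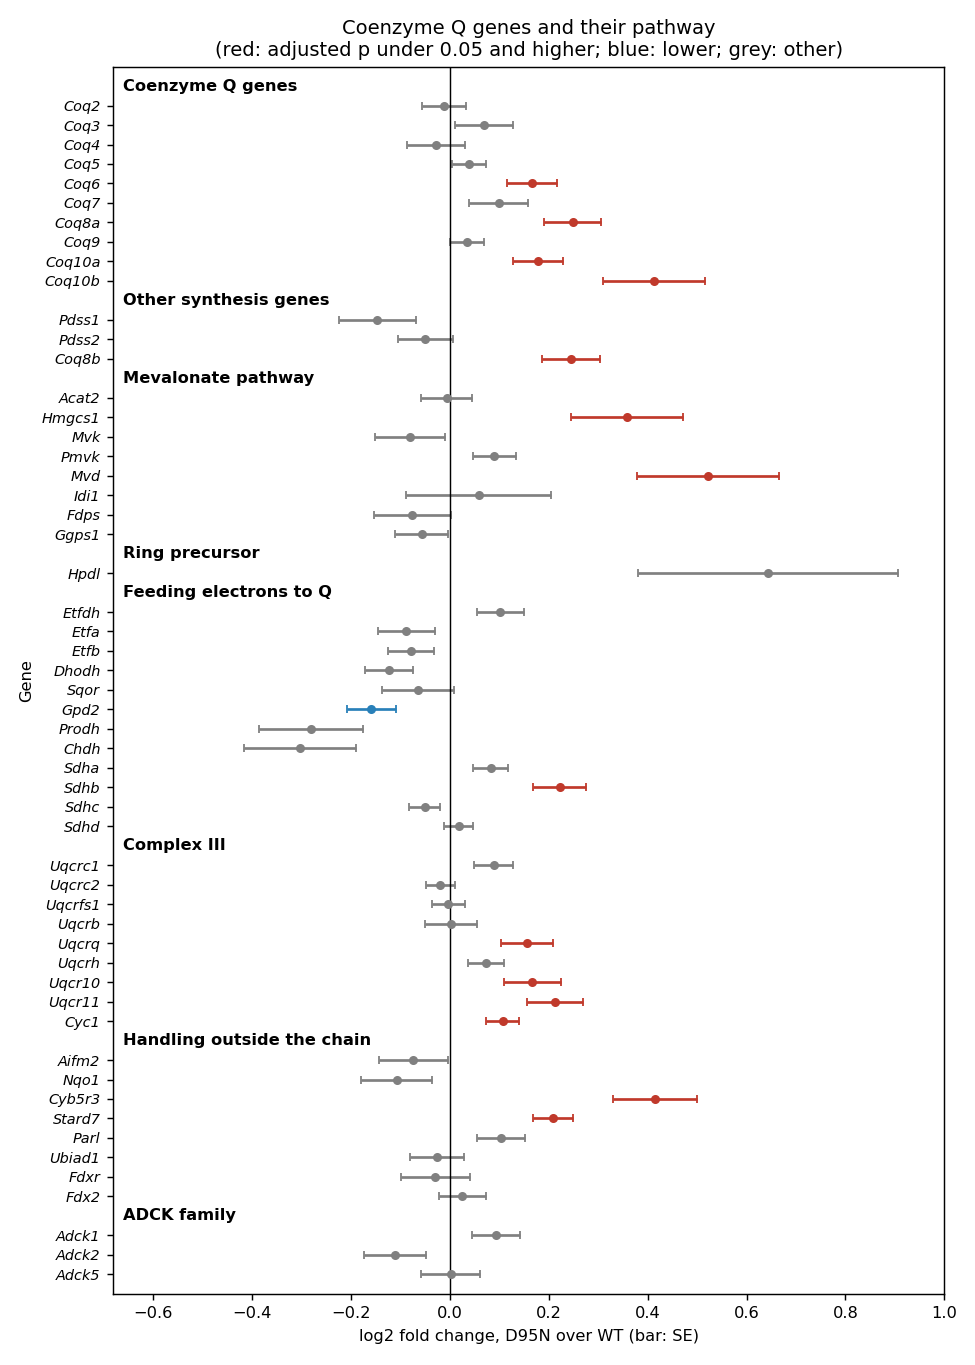
Log2 fold change, D95N over WT, with its SE (bars) for the 10 coenzyme Q genes and 44 tested genes of 7 other pathway lists, from the edgeR fit over all genes. Red points were called higher, blue lower and grey neither; 4 coenzyme Q genes and 10 of the other 44 are red, and Gpd2 is blue.

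Of 9 enzymes of the mevalonate pathway 2 rose. Mvd, mevalonate diphosphate decarboxylase, averaged 24.9 ± 6.26 CPM in D95N and 17.3 ± 3.20 CPM in WT (SD, n = 7 and 8), or 0.52 ± 0.14 (SE) on the log2 scale (edgeR, adjusted p = 0.013), with D95N 42 at 15.5 CPM, and 0.61 without that library. It was not called with the oligodendrocyte, choroid plexus and striatum scores (edgeR, adjusted p = 0.0594). Hmgcs1, a synthase early in the pathway, had a log2 fold change of 0.36 (edgeR, adjusted p = 0.0275) and lost its call when any 1 of D95N 4, D95N 44, WT 11, WT 30 or WT 32 was left out, with adjusted p of 0.0502 to 0.0627. Fdps and Ggps1, which make the prenyl diphosphates for the tail, had log2 fold changes of -0.075 and -0.056 and were not called.

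Of 12 genes that feed electrons into coenzyme Q outside complex I, 1 rose and 1 fell. Sdhb, the iron-sulphur subunit of complex II, averaged 132 ± 13.7 CPM in D95N and 113 ± 4.43 CPM in WT (SD, n = 7 and 8; log2 fold change 0.22 ± 0.054 (SE), edgeR, adjusted p = 0.00645). Gpd2, the mitochondrial glycerol phosphate dehydrogenase, averaged 122 ± 10.7 CPM in D95N and 136 ± 6.82 CPM in WT and fell by 0.16 on the log2 scale (edgeR, adjusted p = 0.0259). Without WT 19 or without D95N 21 Gpd2 was not called, at -0.14 and -0.13, nor with the GC and length correction, at -0.10. With the blood and meningeal scores the log2 fold change was 0.070 for Sdhb (edgeR, adjusted p = 0.675) and -0.043 for Gpd2 (edgeR, adjusted p = 0.773). Of 9 complex III subunits 4 rose and none fell, among them Uqcr11 by 0.21 ± 0.057 (SE) on the log2 scale (edgeR, adjusted p = 0.011), a call lost with the oligodendrocyte, choroid plexus and striatum scores, at 0.15 (adjusted p = 0.15). Uqcrq, Uqcr10 and Cyc1 lost their calls with library totals. Uqcrq also lost its call in 9 and Uqcr10 in 8 of the 15 fits that left out 1 library, and the log2 fold change of Cyc1 was 0.026 with the GC and length correction, against 0.11 without it.

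Of 8 genes that handle coenzyme Q outside the chain or supply Coq6 with electrons, 2 rose. Stard7, a lipid transfer protein that carries coenzyme Q out of mitochondria, averaged 145 ± 9.67 CPM in D95N and 126 ± 5.09 CPM in WT (SD, n = 7 and 8; log2 fold change 0.21 ± 0.041 (SE), edgeR, adjusted p = 0.00179). Cyb5r3, a reductase that can reduce coenzyme Q at the plasma membrane, averaged 102 ± 17.1 CPM in D95N and 76.2 ± 3.85 CPM in WT (log2 fold change 0.42 ± 0.085 (SE), edgeR, adjusted p = 0.00236), with D95N 42 at 69.8 CPM, below all WT libraries, and a log2 fold change of 0.49 without that library. With the blood and meningeal scores the log2 fold change was 0.19 for Cyb5r3 (edgeR, adjusted p = 0.467) and 0.14 for Stard7 (edgeR, adjusted p = 0.283). Aifm2, the quinone reductase that limits lipid peroxidation, and Nqo1 had log2 fold changes of -0.073 and -0.11 and were not called. Fdxr and Fdx2 were not called either, at -0.029 and 0.026. Of 3 other kinase-like genes related to Coq8a, Adck1, Adck2 and Adck5, none was called by edgeR or at an unadjusted p under 0.05, and with the GC and length correction, or without D95N 41, Adck1 was called at 0.15 and 0.12.

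**Figure D4:**
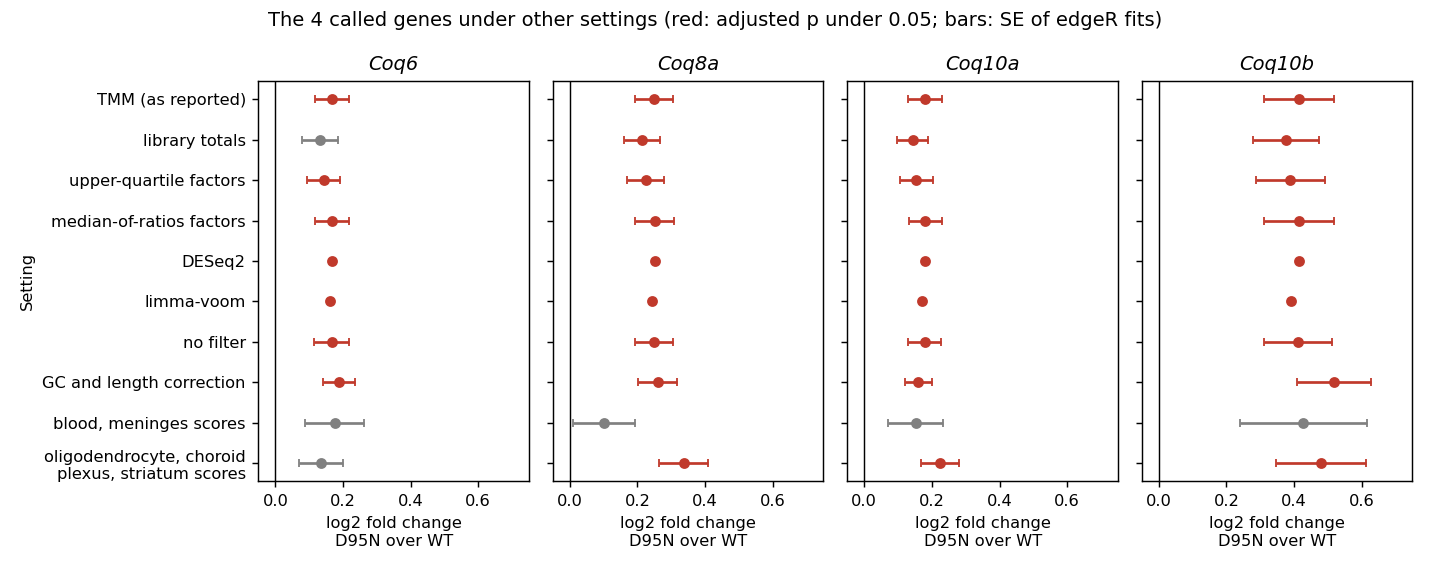
Log2 fold change, D95N over WT, of the 4 called coenzyme Q genes (columns) under TMM scaling as reported and 9 other settings (rows). Red points had an adjusted p under 0.05 and bars are the SE of the edgeR fits; all points lie above 0, and grey points are those with the blood and meningeal scores, and for Coq6 also library totals and the other marker scores.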

How the data were processed

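RNA from 15 frozen tissue samples was extracted with Trizol and made into Illumina libraries, per the labels' protocols. The authors deposited unnormalised whole-number counts for each Ensembl identifier in a file per sample. STAR, featureCounts and build GRCm38 are named in the submitters' processing notes. Versions, annotation and strand setting: not given in the sources used here. Of 22524 identifiers 22291 matched GENCODE M21, and Fdx2 was matched through its older symbol Fdx1l.

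Analyses used R 4.3.3, edgeR 4.0.16, limma 3.58.1, DESeq2 1.42.0 and Python 3.11.15. Groups came from the genotype in the sample titles. The fit had TMM factors, edgeR's default expression filter, genotype as its 1 term and Benjamini-Hochberg adjustment over all tested genes at 0.05. Each standard error was taken from the fold change and its F statistic (absolute log2 value over the root of F). CPM were computed here with the same factors. Batches are not labelled. The code of the test was run on simulated counts that gave both genotypes the same variability between animals. How the test performs with the larger spread seen in D95N was not tested. Genes outside the 10 were named by list: all synthesis genes, up to 4 called genes of each other list, or 1 by smallest p, and the nearest gene by pattern. Fdps, Ggps1, Aifm2, Nqo1, Fdxr, Fdx2, Adck2, Adck5, Tat and Hpd were added after their values were seen. Some gene values are not reported here. The genes and lists were chosen with earlier results of these data known. Alternatives covered scaling, filter, tool, GC content and length (loess offsets), marker scores as covariates and each library left out. The labels give no litter or cage for each animal, so the fit treated the libraries as independent. The p-values set the genotype difference against the variation between these animals, and a shared litter or cage is not accounted for.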

Additional observations from a re-analysis of the deposited data

Results flagged for a closer look

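A library stood far from the rest of its genotype in 7 of 118 groups of values, where about 1 in 20 is flagged by chance in independent groups. WT 24 stood apart upward in Coq10b (24.7 CPM), in the Coq10b share of both Coq10 paralogs (30.9%) and in the mevalonate pathway genes Hmgcs1 (348 CPM), Mvk (23.95 CPM) and Mvd (24.6 CPM). WT 16 stood apart upward in Coq3 (21.7 CPM) and Coq7 (25.8 CPM). No D95N library was flagged in these genes.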

How the results depend on the processing

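Among the 10 coenzyme Q genes, 233 of 240 pairs of a gene and an alternative kept their direction where called and their side of the threshold, 6 lost a call, 1 gained one and none reversed. Most of these pairs were of genes not called in the main fit, or of fits that left out 1 library and shared the others. The 233 is therefore no measure of how firm the calls are. Coq6 kept its call in 6 of the 9 alternatives that used all libraries. The count called higher, 4, was 0 with blood and meningeal scores and stayed at 4 whichever library was left out; the count called lower was 0 throughout. For the other pathway genes the count called higher, 10, was 16 with the GC and length correction, 5 with oligodendrocyte, choroid plexus and striatum scores and 0 with blood and meningeal scores, and 7 to 13 leaving out 1 library. The count called lower, 1, was 5 with library totals, 4 with upper-quartile factors, 3 by DESeq2, 2 by limma-voom, 0 with blood and meningeal scores and 0 to 4 leaving out 1 library. Over the fits that left out 1 library, 13.0% to 17.9% of all tested genes were called higher and 8.67% to 15.2% lower. In the blood and meningeal fit the errors of the 4 called coenzyme Q genes were larger. The log2 fold change of Coq8a was also lower there, 0.10 against 0.25. Why calls changed between settings was not tested. No paired analysis was possible because no animal number occurs in both genotypes. Gene counts limit the data to total transcript per gene.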
